A study of Mus musculus with 18 samples.

Results

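Homeobox genes encode transcription factors that place tissues and organs along the body, and the set described here was the developmental homeobox genes that lie outside the HOX clusters. Its 81 members were all protein-coding genes, among the 36528 genes listed in each file, whose mouse symbol began with 1 of 19 family names (Lhx, Lmx, Alx, Prrx, Pitx, Irx, Meis, Gsx, Dlx, Nkx, Barx, Barhl, Hmx, Msx, Tlx, Emx, Evx, Pax, or the sine oculis family that holds Six2) followed by a digit. A further 12 symbols that began in the same way named noncoding or antisense genes and were left out. The rule went by name alone, so it also took in Pax1 and Pax9, which belong to the PAX family by their paired domain and lack a homeodomain.

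RNA was sequenced from mouse embryonic stem cells in 6 groups of 3 libraries each. The BAP1 knockout group carried a conditional deletion of Bap1 and had received 100 nM 4-hydroxytamoxifen, which switches on Cre recombinase, for 4 days, and its reference was the same line without the drug (the untreated knockout line). The C91A mutant group, whose knock-in form of BAP1 lacks the catalytic cysteine, had received the same drug, and its reference was that line without it (the untreated C91A line). The RNF2-BAP1 double knockout had received the drug too, but no untreated group of that line is among the samples, so it was set against the BAP1 knockout and against wild type. The sources used here do not say whether the wild type was given the drug. All cells had been given emricasan, an inhibitor of caspases, to protect them from death after loss of BAP1. Each effect against an untreated line therefore holds the effects of the drug and of Cre as well as that of the allele. The labels carry no replicate numbers and do not say whether the libraries came from separate cultures, so p-values measure only the spread between these libraries.

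In embryonic stem cells most developmental homeobox genes are held at low levels by Polycomb complexes. Polycomb repressive complex 1, through its ligase RNF2 (RING1B), attaches ubiquitin to histone H2A, and BAP1 is the catalytic subunit of a complex that takes this ubiquitin off again. Polycomb target genes in these cells typically have promoters rich in CpG dinucleotides, and homeobox genes are among the best known of them.

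The promoters are shown for 4 members that stand for the patterns described further on: Lhx9 and Gsx2, both higher in the BAP1 knockout than in the double knockout, Gsx1, near 0 in the BAP1 knockout, and Irx2, higher in the BAP1 knockout, the C91A mutant and the double knockout alike. Each is the window of 250 bases before a start of the gene in RefSeq on GRCm38.p6, read 5′ to 3′ on the gene's strand, with each CpG in capitals. The windows of Gsx1 and Gsx2 end at the outer start of the gene. Those of Lhx9 and Irx2 lie inside the gene's span (chr1:138825186-138848839 and chr13:72624430-72634196), before an inner start, so their CpG counts do not describe the outer start. The windows are chr1:138842445-138842694 on the minus strand for Lhx9, chr5:75075351-75075600 on the plus strand for Gsx2, chr5:147188446-147188695 on the plus strand for Gsx1, and chr13:72628570-72628819 on the plus strand for Irx2.
Lhx9: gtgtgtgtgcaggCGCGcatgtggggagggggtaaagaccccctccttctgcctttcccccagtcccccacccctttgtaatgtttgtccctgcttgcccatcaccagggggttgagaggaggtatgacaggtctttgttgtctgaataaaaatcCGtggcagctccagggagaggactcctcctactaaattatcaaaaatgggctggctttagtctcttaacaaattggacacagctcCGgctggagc
Gsx2: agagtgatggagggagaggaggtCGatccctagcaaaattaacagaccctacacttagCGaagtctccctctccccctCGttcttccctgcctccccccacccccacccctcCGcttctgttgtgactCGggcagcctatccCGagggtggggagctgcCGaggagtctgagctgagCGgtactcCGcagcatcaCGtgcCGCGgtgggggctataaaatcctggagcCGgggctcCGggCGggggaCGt
Gsx1: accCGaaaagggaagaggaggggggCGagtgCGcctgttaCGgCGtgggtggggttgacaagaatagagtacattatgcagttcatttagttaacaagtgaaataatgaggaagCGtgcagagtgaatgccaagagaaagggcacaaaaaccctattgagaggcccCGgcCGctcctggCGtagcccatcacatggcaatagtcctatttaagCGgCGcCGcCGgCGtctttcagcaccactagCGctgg
Irx2: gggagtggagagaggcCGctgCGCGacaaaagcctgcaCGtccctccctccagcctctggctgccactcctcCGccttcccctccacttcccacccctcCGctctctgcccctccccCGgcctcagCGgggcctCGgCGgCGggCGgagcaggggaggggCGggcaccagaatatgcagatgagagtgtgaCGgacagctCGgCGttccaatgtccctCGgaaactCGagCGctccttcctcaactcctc
The Lhx9 window held 4 CpG, against 16 in Gsx2, 15 in Gsx1 and 19 in Irx2. A RefSeq window was found for 60 of the 81 members, 70 windows in all. Their median was 15 CpG per window, against 6 over all 32851 windows of the table, and 80.0% of the member windows held 10 or more, against 37.8% of all windows. The members that rose in the BAP1 knockout had a median of 16 CpG (20 windows), those that fell 15 (9 windows) and those not called 14 (24 windows). The letters TAATTA, the core that many homeodomains bind and the same on both strands, stood in 2 of the 70 member windows (2.86%), against 4.84% of all windows. These are descriptions of the windows and no sign of binding.

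Libraries held 8.11 to 23 megacounts. Levels below are CPM, counts per megacount of library after TMM scaling. Changes are given as log2 fold changes, each followed by its SE (standard error). The adjusted p comes from the quasi-likelihood test of edgeR, adjusted by Benjamini-Hochberg for the 16875 genes tested. A gene is called where the adjusted p is under 0.05. Bap1 averaged 149.8 ± 2.3 CPM in the BAP1 knockout, against 169 ± 1.53 CPM in its untreated line (SD, n = 3 each), so that counts over the whole gene checked the deletion only weakly, and the genotype rests on the labels. The labels do not say which part of the gene was deleted. In the C91A mutant Bap1 averaged 165 ± 1.66 CPM, against 88.9 ± 4.57 CPM in its untreated line and 178 ± 6.64 CPM in wild type. The untreated C91A line was thus below wild type, at -1.01 (SE 0.05, adjusted p = 5.96e-20) on the log2 scale. Each C91A effect is therefore set against a reference that already held less Bap1 RNA than wild type. Rnf2 averaged 74.5 ± 3.52 CPM in the double knockout, against 123 ± 7.61 CPM in the BAP1 knockout, a log2 change of -0.73 (SE 0.06, adjusted p = 1.49e-13). Its counts over the whole gene thus fell only in part, and the double knockout genotype, too, rests on the labels. The biological coefficient of variation that edgeR estimated in common for all tested genes, with counting noise set aside, was 4.47%. It lets small changes pass the test in genes with many counts. Members with few counts varied more between libraries, as their values below show.

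Of the 81 members, 62 passed the filter on low counts and 19 did not. The 19 were Barhl1, Dlx1, Dlx6, Emx2, Evx1, Evx2, Irx6, Lhx4, Lhx8, Msx3, Nkx1-1, Nkx1-2, Nkx2-6, Nkx3-2, Pax2, Pax4, Pax7, Six6 and Tlx2, with 2 to 95 counts each over the 18 libraries together. Per length, the members were low. Of the 81, 46 were under 1 RPKM (reads per kilobase and megacount) in every group mean, and 18 averaged at least 1 RPKM over the groups. Among the highest by this measure were Nkx6-2 at 8.25 RPKM, Six4 at 7.03, Irx2 at 5.0, Nkx2-9 at 3.48 and Nkx6-3 at 3.42. The group with the highest mean was the double knockout for 40 of the 62 tested members, the C91A mutant for 8, the BAP1 knockout for 7, the untreated knockout line and wild type for 3 each, and the untreated C91A line for 1. For 13 of the 62, the double knockout was the only group with all 3 libraries at the filter's level of 0.553 CPM or above. Among these 13 were Alx4, Hmx2, Hmx3, Lmx1a, Nkx2-1, Nkx2-3 and Pax3. The filter asked for that level in any 3 libraries, and those 13 met it in the double knockout. The counts over tested members below therefore describe the tested members and support nothing about the whole set.

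In the BAP1 knockout, 38 of the 62 tested members were called against the untreated line, 27 higher and 11 lower. Among all genes tested 61.6% were called, and among the members 61.3%, so the share called was near the background. The split by direction was 43.5% of members higher, against 31.3% of all genes, and 17.7% lower, against 30.3%. The median log2 fold change was 0.46 over the tested members and -0.01 over all tested genes. Of the 36 members whose mean over all 18 libraries was at least 1 CPM, 20 (55.6%) were higher and 7 (19.4%) lower, against 34.5% and 31.2% of the 14704 genes at that level. The members' levels summed to 242 ± 7.5 CPM in the BAP1 knockout, against 192 ± 0.66 CPM in the untreated line (SD, n = 3 each). By family, 4 of the 5 tested Irx genes rose, as did 3 of 6 tested Lhx genes and 5 of 10 tested Nkx genes.

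**Figure D1:**
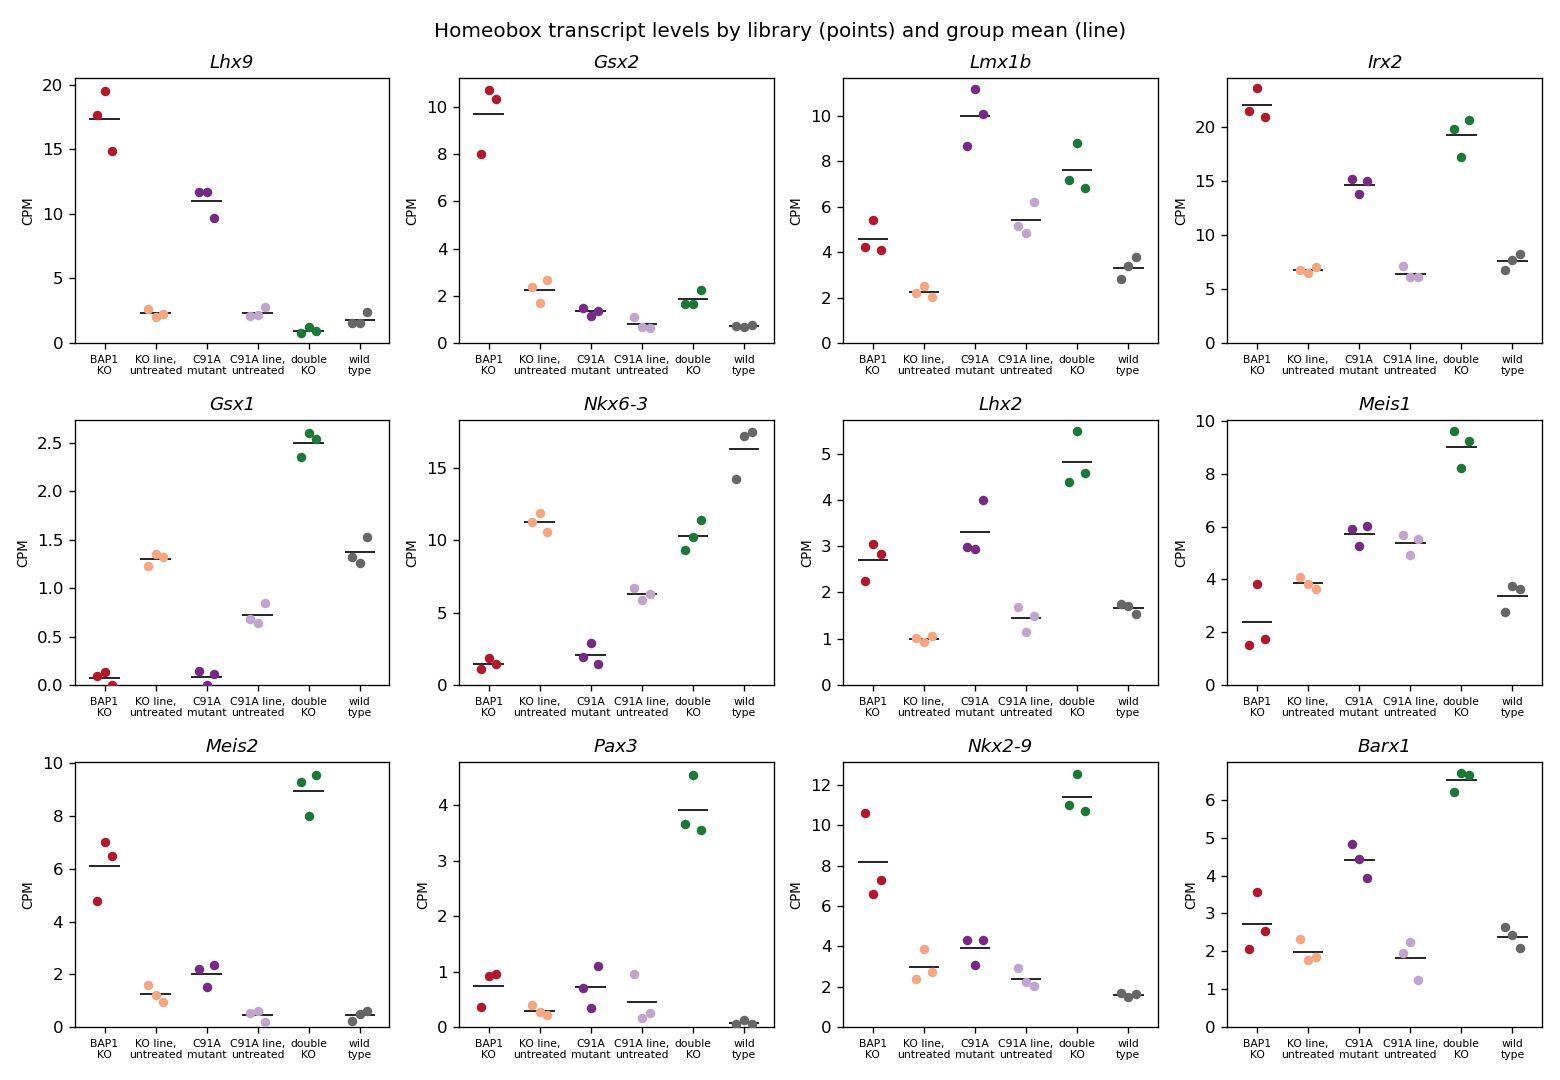
Levels of 12 homeobox genes in CPM (y axis, from 0) in each of the 18 libraries (points), by group (x axis), with the group mean as a line. Lhx9 and Gsx2 stand highest in the BAP1 knockout. In the double knockout Lhx9 is lowest, while Gsx2 is below the BAP1 knockout and above wild type. Gsx1 and Nkx6-3 are lowest in the BAP1 knockout and C91A mutant, and Pax3, Meis1 and Meis2 are highest in the double knockout.

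The LIM-homeodomain genes, whose products also carry LIM domains that bind cofactors, mostly rose where they were called. Lhx9, needed for the formation of the gonad in mice, had 17.6, 19.6 and 14.9 CPM in the BAP1 knockout libraries, against 2.64, 2.01 and 2.27 CPM in those of the untreated line. Every knockout library stood above every untreated one, and the log2 fold change was 2.88 (SE 0.16, adjusted p = 2.91e-19). Lhx2, a regulator of forebrain and eye, had 2.25, 3.04 and 2.83 CPM in the BAP1 knockout, against 1.01, 0.933 and 1.05 CPM without the drug. The libraries did not overlap, with a log2 change of 1.42 (SE 0.25, adjusted p = 4.29e-06). Lmx1b, which patterns the dorsal side of the limb, had 4.23, 5.42 and 4.09 CPM in the BAP1 knockout, against 2.2, 2.52 and 2.0 CPM in the untreated line, again without overlap (log2 fold change 0.98 (SE 0.19, adjusted p = 2.65e-05)). Lhx5, a forebrain gene, had 0.90, 1.98 and 0.842 CPM in the BAP1 knockout, against 0.132, 0.607 and 0.422 CPM in the untreated line, a difference of 1.55 (SE 0.48, adjusted p = 0.00514) on the log2 scale. Its call was lost without BAP1 knockout library 2 (adjusted p = 0.0569). Lhx6, which marks interneurons born in the ventral forebrain, fell: it had 0.45, 0.529 and 1.08 CPM in the BAP1 knockout, against 1.89, 1.96 and 1.74 CPM in the untreated line. Again the groups were apart, at -1.30 (SE 0.34, adjusted p = 0.00121), and the value was -1.94 without BAP1 knockout library 3.

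The aristaless-related genes Alx1 and Alx4, active in the mesenchyme of the developing face, both rose. Alx1 had 2.79, 1.32 and 1.87 CPM in the BAP1 knockout, against 0.484, 0.327 and 0.316 CPM in the untreated line. Its groups did not overlap, and the log2 change was 2.40 (SE 0.36, adjusted p = 2.56e-07). Alx4 was barely detected: 11 counts in all in the BAP1 knockout, against 2 counts in the untreated line. Its ratio per library size was 9.84 (exact 95% interval 2.15 to 91.4), an interval that covers counting error only, and the call (adjusted p = 0.0154) was lost without untreated knockout line library 1 (adjusted p = 0.061) and without BAP1 knockout library 2 (adjusted p = 0.135). Pitx1, which gives the hindlimb its identity, had 0.45, 0.529 and 0.842 CPM in the BAP1 knockout, against 0.308, 0.0933 and 0.158 CPM in the untreated line, a log2 change of 1.73 (SE 0.54, adjusted p = 0.00566), and its call was lost with counts thinned to the smallest library (adjusted p = 0.0659) and without BAP1 knockout library 3 (adjusted p = 0.112), while the value was 2.32 without untreated knockout line library 1.

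The Iroquois genes Irx1, Irx2, Irx3 and Irx5, of the TALE class of homeodomains, act in neural and heart patterning. Irx2 had 21.5, 23.7 and 20.9 CPM in the BAP1 knockout, against 6.73, 6.49 and 7.02 CPM in the untreated line. Irx1 had 5.13, 3.7 and 3.85 CPM, against 0.571, 0.56 and 0.844 CPM, in the same order of groups. In both, all knockout libraries lay above all untreated ones, and the log2 fold changes were 1.70 (SE 0.11, adjusted p = 1.83e-17) for Irx2 and 2.69 (SE 0.28, adjusted p = 5.74e-11) for Irx1. Irx3 had 4.5, 4.89 and 4.69 CPM in the BAP1 knockout, against 1.49, 1.54 and 1.69 CPM in the untreated line (log2 fold change 1.57 (SE 0.20, adjusted p = 3.96e-09)). Irx5 had 2.25, 3.04 and 1.81 CPM in the BAP1 knockout, against 0.923, 1.31 and 1.21 CPM in the untreated line (log2 fold change 0.97 (SE 0.28, adjusted p = 0.00234)). Neither pair of groups overlapped. Irx4, a gene of the heart ventricle, was not called: 0.54, 0.132 and 0.421 CPM in the BAP1 knockout, against 0.615, 0.42 and 0.897 CPM in the untreated line. Of the MEIS genes, TALE factors that bind DNA with HOX and PBX proteins, Meis2 rose and Meis1 fell. Meis2 had 4.77, 7.0 and 6.5 CPM in the BAP1 knockout, against 1.58, 1.21 and 0.949 CPM in the untreated line, with no overlap and a log2 change of 2.26 (SE 0.23, adjusted p = 2.26e-11). Meis1 had 1.53, 3.83 and 1.74 CPM in the BAP1 knockout, against 4.09, 3.83 and 3.64 CPM in the untreated line. One knockout library reached the untreated range, so the groups overlapped although the gene was called at -0.84 (SE 0.22, adjusted p = 0.000896), and the call was lost with counts thinned to the smallest library (adjusted p = 0.118).

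Gsx1 and Gsx2, a pair of paralogs that specify progenitors of the ventral telencephalon, moved in opposite directions. Gsx2 had 8.01, 10.7 and 10.3 CPM in the BAP1 knockout, against 2.37, 1.68 and 2.69 CPM in the untreated line. All 3 knockout libraries stood far above the untreated ones, at 2.11 (SE 0.18, adjusted p = 4.63e-13) on the log2 scale. Gsx1 had 0.090, 0.132 and 0 CPM in the BAP1 knockout, against 1.23, 1.35 and 1.32 CPM in the untreated line, which is 2 counts in all against 82. The ratio per library size was 0.0436 (exact 95% interval 0.0052 to 0.163), and the gene was called with adjusted p = 4.83e-08. Nkx6-3, a gene of the stomach lining, also fell. It had 1.08, 1.85 and 1.44 CPM in the BAP1 knockout, against 11.3, 11.9 and 10.5 CPM in the untreated line, wholly apart, with a log2 change of -2.98 (SE 0.19, adjusted p = 6.76e-17).

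Other NK-class genes that were called were mostly higher. Nkx2-9, active in the ventral neural tube, had 10.6, 6.61 and 7.28 CPM in the BAP1 knockout, against 2.37, 3.87 and 2.74 CPM in the untreated line. Nkx6-1, needed for pancreatic beta cells and motor neuron progenitors, had 1.89, 1.45 and 2.35 CPM, against 0.923, 0.56 and 0.633 CPM. Both rose without overlap, by 1.45 (SE 0.18, adjusted p = 4.39e-09) for Nkx2-9 and 1.47 (SE 0.36, adjusted p = 0.000456) for Nkx6-1 on the log2 scale. Nkx2-3, which acts in spleen and gut, had 11 counts in all in the BAP1 knockout, against 2 in the untreated line, a ratio per library size of 9.84 (exact 95% interval 2.15 to 91.4) with adjusted p = 0.00602. Nkx2-4 and Nkx2-5, the last a regulator of heart development, were not called, with log2 fold changes of 0.30 (SE 0.42, adjusted p = 0.548) and -0.27 (SE 0.34, adjusted p = 0.501). Hmx1, a gene of eye and ear, had 2.61, 3.04 and 2.59 CPM in the BAP1 knockout, against 1.23, 0.887 and 1.95 CPM in the untreated line, without overlap (log2 fold change 1.01 (SE 0.25, adjusted p = 0.000612)).

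Six2, which keeps nephron progenitors, had 0.90, 1.06 and 0.782 CPM in the BAP1 knockout, against 0.396, 0.607 and 0.369 CPM in the untreated line, called at 0.93 (SE 0.39, adjusted p = 0.0356). That call was lost with DESeq2 (adjusted p = 0.0537), with no filter on low counts (adjusted p = 0.0764), with only the compared groups in the fit (adjusted p = 0.0557), without untreated knockout line library 1 (adjusted p = 0.0989), without untreated knockout line library 3 (adjusted p = 0.0949), without BAP1 knockout library 1 (adjusted p = 0.0743) and without BAP1 knockout library 2 (adjusted p = 0.0878). Pax6, the eye regulator, had 8.1, 7.0 and 10.5 CPM in the BAP1 knockout, against 6.24, 6.77 and 5.17 CPM in the untreated line (log2 fold change 0.53 (SE 0.15, adjusted p = 0.00212)), and was no longer called without BAP1 knockout library 3 (adjusted p = 0.114). Pax3, a gene of neural crest and muscle precursors, had 0.36, 0.925 and 0.963 CPM in the BAP1 knockout, against 0.396, 0.28 and 0.211 CPM in the untreated line. Its groups overlapped, and the call at 1.32 (SE 0.53, adjusted p = 0.0291) was lost with counts thinned to the smallest library (adjusted p = 0.0556), without untreated knockout line library 2 (adjusted p = 0.0625), without untreated knockout line library 3 (adjusted p = 0.0826), without BAP1 knockout library 2 (adjusted p = 0.0691) and without BAP1 knockout library 3 (adjusted p = 0.237). Pax9, needed for teeth and thymus, overlapped too, with 0.90, 0.264 and 0.421 CPM in the BAP1 knockout, against 0.044, 0.327 and 0.211 CPM in the untreated line. Its call at 1.47 (SE 0.62, adjusted p = 0.0387) was lost with counts thinned to the smallest library (adjusted p = 0.0628), without untreated knockout line library 1 (adjusted p = 0.189), without untreated knockout line library 3 (adjusted p = 0.059) and without BAP1 knockout library 1 (adjusted p = 0.297), and the value was 2.10 without untreated knockout line library 2. Dlx2, a gene of ventral forebrain and branchial arches, had 1.62, 0.529 and 1.38 CPM in the BAP1 knockout, against 0.615, 0.70 and 0.686 CPM in the untreated line, with overlap, and its call at 0.91 (SE 0.37, adjusted p = 0.0293) was lost with counts thinned to the smallest library (adjusted p = 0.146), without untreated knockout line library 1 (adjusted p = 0.0738), without BAP1 knockout library 1 (adjusted p = 0.155) and without BAP1 knockout library 3 (adjusted p = 0.137). Barhl2, a gene of the retina, had 0.45, 0.396 and 0.241 CPM in the BAP1 knockout, against 1.14, 0.70 and 0.738 CPM in the untreated line. It was called lower at -1.32 (SE 0.51, adjusted p = 0.0241), and this was lost with counts thinned to the smallest library (adjusted p = 0.157), without untreated knockout line library 1 (adjusted p = 0.118) and without BAP1 knockout library 3 (adjusted p = 0.163). Other called members were small steps or near the floor, among them Msx2, Nkx2-1 and Nkx6-2 higher, and Barx2, Dlx4, Pitx3 and Six4 lower. Six4, named after its values were seen, had 41.1, 45.6 and 42.8 CPM in the BAP1 knockout, against 59.9, 62.2 and 62.7 CPM in the untreated line (-0.52 (SE 0.06, adjusted p = 3.39e-09) on the log2 scale).

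**Figure D2:**
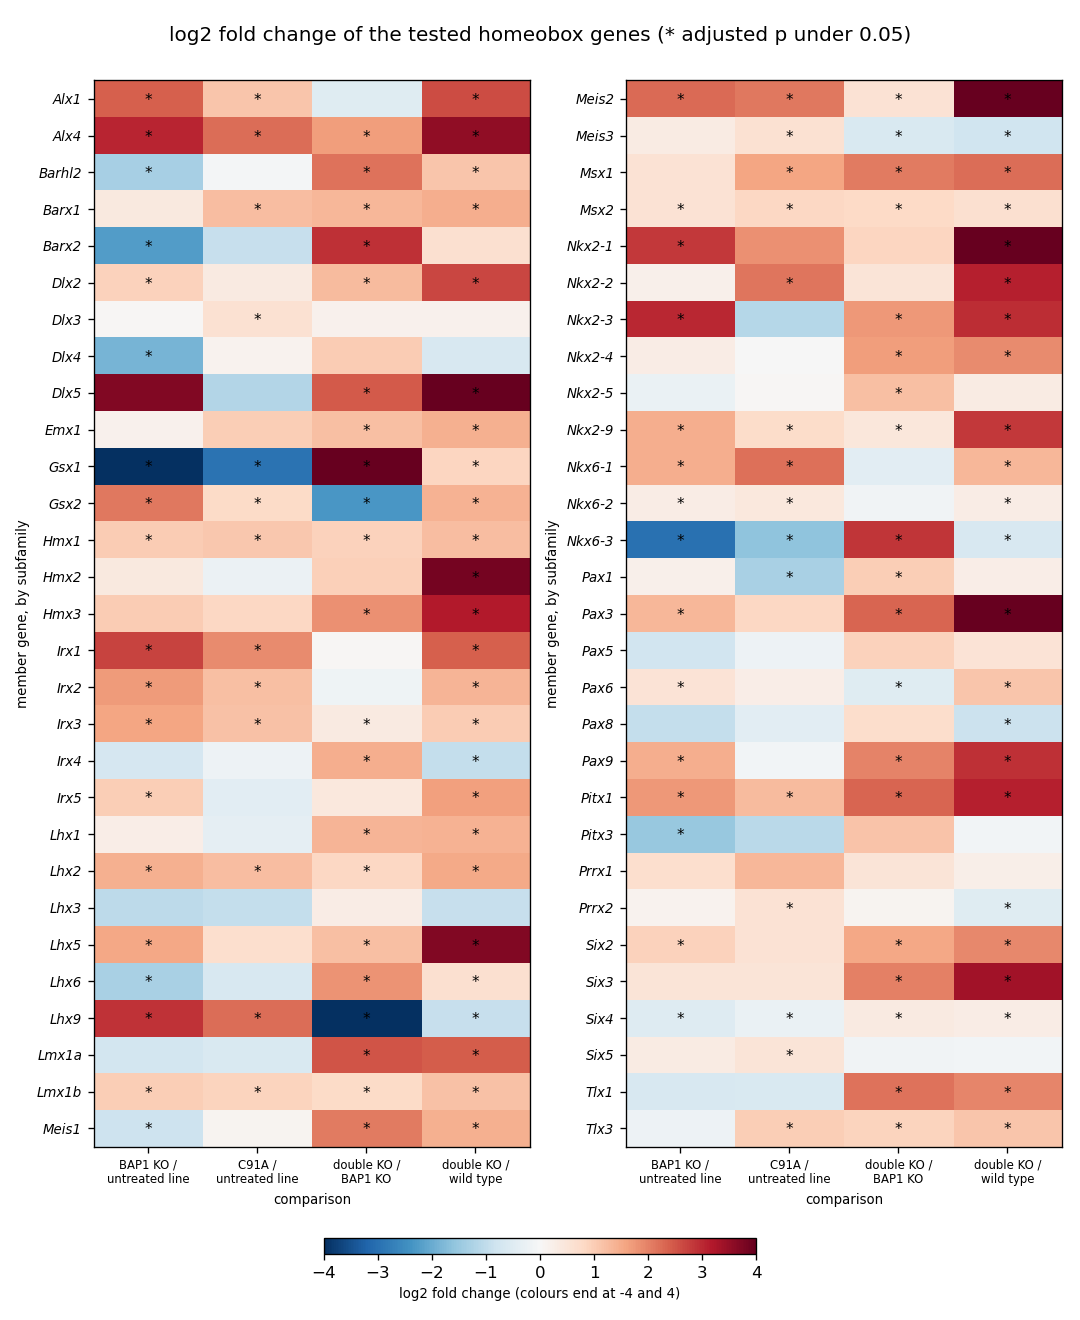
Log2 fold change (colour, ending at -4 and 4) of 58 of the tested homeobox genes (y axis, by family) in 4 comparisons (x axis), with a star where the adjusted p was under 0.05. Alx1, Irx1, Irx2, Irx3 and Lmx1b are red in the BAP1 knockout and C91A columns, Gsx1 and Nkx6-3 are blue in both, and Lhx9 is red in both and blue in the 2 double knockout columns; for Alx4, Barx2, Dlx5, Gsx1, Nkx2-1 and Nkx2-3 some group held 3 counts or fewer, so the depth of colour there depends on the fit.

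In the C91A mutant, 32 of the 62 tested members were called against the untreated C91A line, 26 higher and 6 lower. Among all genes 55.0% were called, 28.6% higher and 26.4% lower, against 41.9% of members higher and 9.68% lower. The median log2 fold change was 0.55 over the tested members, or 0.52 with members near 0 counts set at their bound, and -0.01 over all tested genes. Of the 36 members with a mean of at least 1 CPM, 22 (61.1%) were higher and 5 (13.9%) lower, against 31.4% and 27.6% of genes at that level. The members' levels summed to 241 ± 2.65 CPM in the C91A mutant, against 173 ± 1.38 CPM in its untreated line (SD, n = 3 each).

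Lhx9 had 11.7, 11.7 and 9.7 CPM in the C91A mutant, against 2.1, 2.17 and 2.8 CPM in the untreated C91A line. The libraries were wholly apart, as in the knockout, with a log2 change of 2.23 (SE 0.17, adjusted p = 6.95e-15). Irx2 had 15.2, 13.8 and 15.1 CPM in the C91A mutant, against 7.12, 6.08 and 6.12 CPM in the untreated line, and Irx1 had 3.26, 1.77 and 2.85 CPM, against 0.814, 0.723 and 0.586 CPM. Both rose without overlap, by 1.20 (SE 0.11, adjusted p = 3.62e-12) for Irx2 and 1.88 (SE 0.30, adjusted p = 9.43e-07) for Irx1. Irx3 had 5.53, 5.46 and 5.2 CPM in the C91A mutant, against 2.92, 2.08 and 2.28 CPM in the untreated line (1.17 (SE 0.17, adjusted p = 2.45e-07)), and these groups too were apart.

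Meis2 had 2.2, 1.5 and 2.36 CPM in the C91A mutant, against 0.543, 0.595 and 0.195 CPM in the untreated C91A line. Its groups did not overlap, at 2.12 (SE 0.34, adjusted p = 9.84e-07). Nkx6-1 had 0.568, 1.09 and 0.986 CPM in the C91A mutant, against 0.271, 0.213 and 0.0651 CPM in the untreated line (2.22 (SE 0.53, adjusted p = 0.000485)). Lhx2 had 2.98, 2.93 and 4.0 CPM in the C91A mutant, against 1.7, 1.15 and 1.5 CPM in the untreated line (1.24 (SE 0.22, adjusted p = 6.91e-06)). Hmx1 had 3.12, 2.73 and 2.74 CPM, against 1.29, 1.49 and 1.24 CPM, in the same order (1.07 (SE 0.24, adjusted p = 0.000243)). In each of these 3 the mutant libraries were all higher. Pitx1 had 1.92, 2.11 and 1.21 CPM in the C91A mutant, against 1.02, 0.68 and 0.456 CPM in the untreated line (1.26 (SE 0.34, adjusted p = 0.00145)). Msx1, a gene of tooth and palate, had 1.14, 1.16 and 1.81 CPM in the C91A mutant, against 0.203, 0.638 and 0.456 CPM in the untreated line (1.58 (SE 0.38, adjusted p = 0.000489)). Barx1, a regulator of the stomach, had 4.82, 4.43 and 3.94 CPM in the C91A mutant, against 1.97, 2.25 and 1.24 CPM in the untreated line (1.23 (SE 0.20, adjusted p = 2.39e-06)). Their groups, too, were apart.

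Alx1 had 0.638, 0.682 and 0.767 CPM in the C91A mutant, against 0.475, 0.213 and 0.326 CPM in the untreated C91A line, called at 1.12 (SE 0.45, adjusted p = 0.0342). This call was lost with DESeq2 (adjusted p = 0.0564), with counts thinned to the smallest library (adjusted p = 0.604), with no filter on low counts (adjusted p = 0.0595), without untreated C91A line library 2 (adjusted p = 0.193), without untreated C91A line library 3 (adjusted p = 0.0627), without C91A mutant library 2 (adjusted p = 0.0578) and without C91A mutant library 3 (adjusted p = 0.107). Alx4 had 0.638, 0.341 and 0.657 CPM in the C91A mutant, against 0.339, 0.0425 and 0 CPM in the untreated line, called at 2.22 (SE 0.75, adjusted p = 0.0119) and lost without untreated C91A line library 2 (adjusted p = 0.0865), without untreated C91A line library 3 (adjusted p = 0.0602) and without C91A mutant library 3 (adjusted p = 0.0527), with a value of 4.09 without untreated C91A line library 1. Pax1, a gene of the vertebral column, was the 1 member called lower in C91A and not in the knockout: 0.426, 0.205 and 0.164 CPM in the C91A mutant, against 0.475, 0.893 and 0.456 CPM in the untreated line. It was called at -1.30 (SE 0.53, adjusted p = 0.0355), and this was lost with DESeq2 (adjusted p = 0.0581), without untreated C91A line library 2 (adjusted p = 0.285), without C91A mutant library 2 (adjusted p = 0.0994) and without C91A mutant library 3 (adjusted p = 0.151). Gsx1 had 0.142, 0 and 0.11 CPM in the C91A mutant, against 0.678, 0.638 and 0.846 CPM in the untreated line. All mutant libraries were below all untreated ones, with 4 counts in all in the mutant, against 38 in the untreated line (-2.96 (SE 0.58, adjusted p = 3.39e-05)). Nkx6-3 had 1.92, 2.93 and 1.42 CPM in the C91A mutant, against 6.71, 5.87 and 6.32 CPM in the untreated line (-1.61 (SE 0.18, adjusted p = 8.02e-10)). In both genes the fall had the same sign as in the BAP1 knockout.

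The knockout and C91A effects share no library, so their calls can be crossed. Of the 27 members higher in the BAP1 knockout, 18 (66.7%) were also higher in the C91A mutant, and these 18 were 69.2% of the 26 higher in C91A. Over all tested genes the same shares were 66.6% and 72.9%, so the crossing of the members was near the background. Of the 11 members lower in the knockout, 5 were also lower in C91A, Gsx1, Nkx6-3 and Six4 among them, and 6 members fell in C91A in all. Those 5 were 45.5% of the members lower in the knockout, against 63.9% over all tested genes. No member was called in opposite directions. A further 9 members were called higher in the knockout and not called in C91A, and 8 the other way round, but an effect that passes in 1 comparison and not in the other is not thereby shown to differ.

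**Figure D3:**
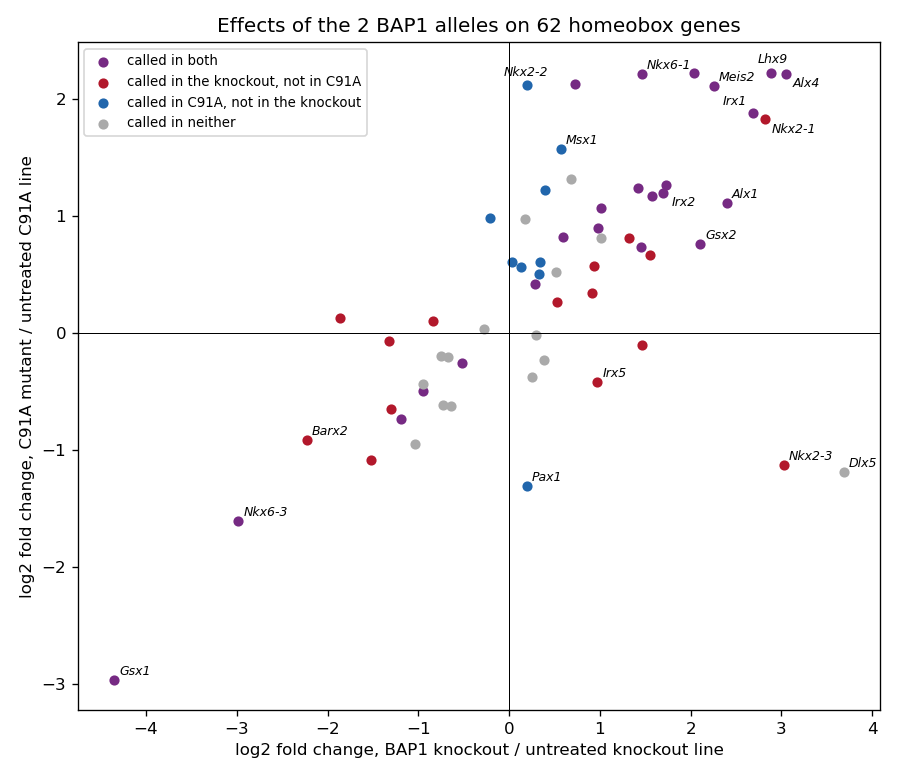
Log2 fold change of the 62 tested homeobox genes in the BAP1 knockout over its untreated line (x axis) and in the C91A mutant over its untreated line (y axis), coloured by which of the 2 comparisons called the gene. The 18 genes called higher in both lie in the upper right, the 5 called lower in both in the lower left, and no gene called in both lies in the other corners.

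The difference between the knockout effect and the C91A effect was tested directly. It was called for 13 members, 5 with a higher and 8 with a lower effect in the knockout, 21% of the members against 25.9% of all genes. Without BAP1 knockout library 3 the count was 8, and with counts thinned to the smallest library it was 5. Gsx2 had the clearest excess in the knockout. In the C91A line it had 1.49, 1.16 and 1.37 CPM in the mutant, against 1.09, 0.68 and 0.651 CPM untreated, a log2 change of 0.76 (SE 0.31, adjusted p = 0.0337), and the knockout effect exceeded it by 1.34 (SE 0.37, adjusted p = 0.00597). The call of the difference was lost with counts thinned to the smallest library (adjusted p = 0.0659), and the small C91A effect itself was lost with counts thinned to the smallest library (adjusted p = 0.0725), with no filter on low counts (adjusted p = 0.0504), with only the compared groups in the fit (adjusted p = 0.051), without untreated C91A line library 2 (adjusted p = 0.142), without untreated C91A line library 3 (adjusted p = 0.0993), without C91A mutant library 1 (adjusted p = 0.0927) and without C91A mutant library 3 (adjusted p = 0.087). Irx5, raised in the knockout, had 0.922, 1.09 and 1.04 CPM in the C91A mutant, against 1.83, 0.978 and 1.43 CPM in the untreated C91A line, so the mutant libraries overlapped the untreated ones, and the effects differed by 1.39 (SE 0.41, adjusted p = 0.00963). That difference was lost with counts thinned to the smallest library (adjusted p = 0.0572). Lhx9 and Irx2 rose more in the knockout than in C91A, by 0.65 (SE 0.25, adjusted p = 0.0438) for Lhx9 and 0.50 (SE 0.16, adjusted p = 0.0151) for Irx2. The Lhx9 difference was lost with counts thinned to the smallest library (adjusted p = 0.0549), with no filter on low counts (adjusted p = 0.0543), without untreated C91A line library 3 (adjusted p = 0.161), without C91A mutant library 3 (adjusted p = 0.0989), without untreated knockout line library 2 (adjusted p = 0.123), without untreated knockout line library 3 (adjusted p = 0.0759), without BAP1 knockout library 1 (adjusted p = 0.0725) and without BAP1 knockout library 2 (adjusted p = 0.0924). The Irx2 difference was lost without untreated C91A line library 1 (adjusted p = 0.0542).

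Nkx6-3 fell further in the knockout by -1.37 (SE 0.30, adjusted p = 0.000586) (knockout minus C91A). Tlx3, a gene of sensory spinal neurons, had 1.71, 1.19 and 1.5 CPM in the BAP1 knockout, against 2.02, 1.87 and 1.27 CPM in the untreated knockout line. It had 4.19, 4.09 and 3.34 CPM in the C91A mutant, against 2.03, 2.3 and 1.37 CPM in the untreated C91A line. The knockout libraries overlapped their untreated line while the C91A libraries were all higher than theirs, and the difference of the effects was -1.20 (SE 0.34, adjusted p = 0.00681). Meis1 had 5.89, 5.25 and 6.03 CPM in the C91A mutant, against 5.7, 4.93 and 5.53 CPM in the untreated C91A line, and its effects differed by -0.94 (SE 0.27, adjusted p = 0.00821). The Meis1 difference was lost with counts thinned to the smallest library (adjusted p = 0.138) and without BAP1 knockout library 3 (adjusted p = 0.0803). Barx1 had 2.07, 3.57 and 2.53 CPM in the BAP1 knockout, against 2.33, 1.77 and 1.85 CPM in the untreated knockout line, and the difference of -0.83 (SE 0.31, adjusted p = 0.0414) was lost with DESeq2 (adjusted p = 0.0518), with counts thinned to the smallest library (adjusted p = 0.28), with only the compared groups in the fit (adjusted p = 0.0526), without untreated C91A line library 3 (adjusted p = 0.133), without C91A mutant library 1 (adjusted p = 0.0777), without C91A mutant library 2 (adjusted p = 0.0635), without untreated knockout line library 1 (adjusted p = 0.132), without BAP1 knockout library 1 (adjusted p = 0.116) and without BAP1 knockout library 3 (adjusted p = 0.0962). Further called differences were those of Nkx2-3, which rests on 2 to 11 counts per group, and of Dlx3, Dlx4 and Six4, whose values are given in the closing section.

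The tested members that were called in the double knockout, which by its label lacks RNF2 as well as BAP1, were mostly higher. Line and allele cannot be told apart there, for want of an untreated group of that line. Against the BAP1 knockout, 43 of the 62 tested members were called in the double knockout, 38 higher and 5 lower. That was 69.4% of members against 63.2% of all genes, with 61.3% of members higher, against 32.6% of all genes, and 8.06% lower, against 30.6%. Against wild type 50 were called, 44 higher and 6 lower, or 80.6% of members against 53.3% of all genes, with 71% higher, against 26.2% of all genes, and 9.68% lower, against 27.1%. The median log2 fold change was 0.98 against the BAP1 knockout and 1.34 against wild type, with 0.03 and 0.01 over all tested genes. Of the 36 members with a mean of at least 1 CPM, 23 (63.9%) were higher and 5 (13.9%) lower than in the BAP1 knockout, and 26 (72.2%) were higher and 5 (13.9%) lower than in wild type. The shares of all genes at that level were 31.9% up and 34.4% down against the BAP1 knockout, and 26.7% up and 30.0% down against wild type. That mean includes the double knockout libraries, so a member high there could enter the 36 through them. The shares of the 36 therefore describe those members only. The members' levels summed to 300 ± 3.8 CPM in the double knockout, against 242 ± 7.5 CPM in the BAP1 knockout and 181 ± 4.73 CPM in wild type (SD, n = 3 each). The comparisons share the double knockout libraries, and that with the BAP1 knockout shares its libraries with the knockout effect, so their values are set side by side only.

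**Figure D4:**
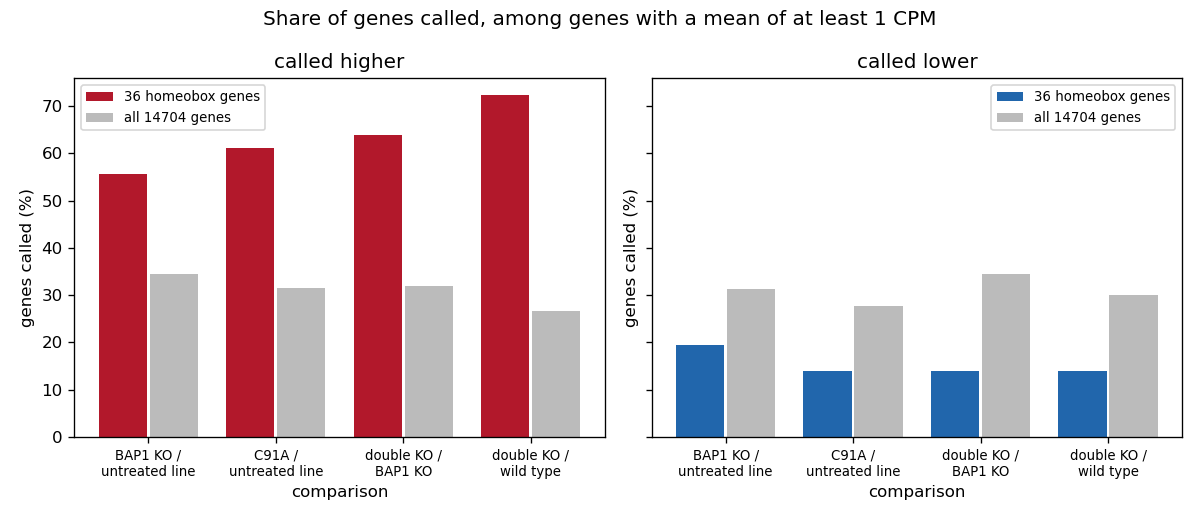
Share of genes called higher (left panel) and lower (right panel), in percent from 0, in 4 comparisons (x axis), for the 36 homeobox genes with a mean of at least 1 CPM over all libraries (coloured bars) and all 14704 genes at that level (grey bars). The homeobox bars for higher calls run from 55.6% to 72.2%, against 26.7% to 34.5% for all genes. The mean includes the libraries compared, so a gene high in the double knockout can enter the 36 through that group.

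Several members were low in wild type and higher in the double knockout. Some of those given here and below, among them Pax3, Alx4, Hmx2, Hmx3, Lmx1a and Nkx2-3, reached the filter's level as a group only there. They were tested because of their double knockout levels, so their changes against the other groups are descriptions of selected genes. Pax3 had 3.66, 4.55 and 3.55 CPM in the double knockout, against 0.055, 0.135 and 0.0477 CPM in wild type. It also stood above the BAP1 knockout, with log2 fold changes of 5.46 (SE 0.47, adjusted p = 4.35e-13) against wild type and 2.34 (SE 0.36, adjusted p = 3.25e-07) against the knockout, and the first was 6.06 without wild type library 2. Meis2 had 9.28, 8.02 and 9.56 CPM in the double knockout, against 0.22, 0.497 and 0.619 CPM in wild type. Its log2 fold change was 4.28 (SE 0.25, adjusted p = 2.52e-18) against wild type and a smaller 0.57 (SE 0.18, adjusted p = 0.00492) against the BAP1 knockout, and that second call was lost without BAP1 knockout library 1 (adjusted p = 0.0572). Nkx2-9 had 11, 12.6 and 10.7 CPM in the double knockout, against 1.7, 1.49 and 1.62 CPM in wild type, without overlap (2.82 (SE 0.18, adjusted p = 8.92e-17)). Against the BAP1 knockout its change was 0.47 (SE 0.16, adjusted p = 0.0084), lost without BAP1 knockout library 2 (adjusted p = 0.0531) and without BAP1 knockout library 3 (adjusted p = 0.0932). Lhx5 had 2.35, 2.24 and 3.11 CPM in the double knockout, against 0.11, 0.316 and 0.143 CPM in wild type (3.70 (SE 0.44, adjusted p = 2.31e-09)). Against the BAP1 knockout it was 1.20 (SE 0.36, adjusted p = 0.00387), lost without BAP1 knockout library 3 (adjusted p = 0.0573).

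Pitx1 had 2.62, 4.04 and 3.19 CPM in the double knockout, against 0.495, 0.361 and 0.286 CPM in wild type (3.09 (SE 0.33, adjusted p = 1.05e-10)). Pax9 had 1.77, 2.67 and 2.08 CPM in the double knockout, against 0.385, 0.316 and 0.143 CPM in wild type (2.93 (SE 0.41, adjusted p = 1.07e-07)). Dlx2 had 3.33, 2.31 and 3.31 CPM in the double knockout, against 0.385, 0.632 and 0.381 CPM in wild type (2.66 (SE 0.31, adjusted p = 1.76e-09)). In all 3 the double knockout was above every wild type and every BAP1 knockout library, with log2 fold changes against the knockout of 2.32 for Pitx1, 1.99 for Pax9 and 1.26 for Dlx2. Alx4 had 0.719, 1.59 and 0.858 CPM in the double knockout, against 0, 0.181 and 0.0477 CPM in wild type (3.54 (SE 0.67, adjusted p = 2.27e-05)), a value that was 4.97 without wild type library 2. Set against the BAP1 knockout, Alx4 overlapped, and its call at 1.68 (SE 0.60, adjusted p = 0.014) was lost without BAP1 knockout library 1 (adjusted p = 0.11), without BAP1 knockout library 3 (adjusted p = 0.0666) and without double knockout library 2 (adjusted p = 0.0812), with a value of 2.47 without BAP1 knockout library 2. Alx1 had 1.7, 1.3 and 1.35 CPM in the double knockout, against 0.165, 0.316 and 0.191 CPM in wild type (2.62 (SE 0.40, adjusted p = 4.75e-07)). Alx1 was not called against the BAP1 knockout, at -0.49 (SE 0.30, adjusted p = 0.147).

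Several members that were not called in the BAP1 knockout were higher in the double knockout than in wild type. Six3, a gene of forebrain and eye, had 1.83, 0.867 and 1.47 CPM in the double knockout, against 0.36, 0.529 and 0.241 CPM in the BAP1 knockout and 0.11, 0.226 and 0.0477 CPM in wild type. Lmx1a, of the roof plate and midbrain dopamine neurons, had 3.01, 1.95 and 2.41 CPM in the double knockout, against 0.63, 0.264 and 0.361 CPM in the BAP1 knockout and 0.605, 0.542 and 0.238 CPM in wild type. Msx1 had 3.66, 2.82 and 2.41 CPM in the double knockout, against 0.54, 1.06 and 0.602 CPM in the BAP1 knockout and 0.605, 0.587 and 0.667 CPM in wild type. The double knockout libraries of these 3 genes lay above all those of both other groups. Against wild type the log2 fold changes were 3.36 (SE 0.52, adjusted p = 6.47e-07) for Six3, 2.41 (SE 0.34, adjusted p = 8.07e-08) for Lmx1a and 2.22 (SE 0.30, adjusted p = 4.93e-08) for Msx1, with Six3 at 4.07 without wild type library 2. Hmx2 and Hmx3, neighbouring genes that build the inner ear, were both higher than in wild type. Hmx3 had 2.16, 1.01 and 1.43 CPM in the double knockout, against 0.18, 0.529 and 0.542 CPM in the BAP1 knockout and 0.055, 0.135 and 0.286 CPM in wild type (3.18 (SE 0.54, adjusted p = 3.69e-06) against wild type), or 3.86 without wild type library 3. Hmx2 had 0.785, 1.3 and 0.981 CPM in the double knockout, against 0.63, 0.661 and 0.361 CPM in the BAP1 knockout and 0.055, 0.0903 and 0.0477 CPM in wild type. It was called against wild type (3.81 (SE 0.57, adjusted p = 3.24e-07)) and not against the BAP1 knockout (0.96 (SE 0.44, adjusted p = 0.0519)). Without any deletion, in the untreated knockout line, Hmx2 was already called higher than in wild type, as given below. Nkx2-3, called in the knockout on few counts, had 1.05, 0.867 and 1.18 CPM in the double knockout, against 0.055, 0.135 and 0.191 CPM in wild type (2.95 (SE 0.53, adjusted p = 9.67e-06)). Nkx2-4, another NK2 gene, had 1.44, 2.53 and 2.66 CPM in the double knockout, against 0.63, 0.661 and 0.782 CPM in the BAP1 knockout and 0.605, 0.406 and 0.81 CPM in wild type (1.88 (SE 0.31, adjusted p = 1.68e-06) against wild type).

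Barx1 had 6.21, 6.72 and 6.66 CPM in the double knockout, against 2.07, 3.57 and 2.53 CPM in the BAP1 knockout and 2.64, 2.44 and 2.1 CPM in wild type. It was apart from both, at 1.31 (SE 0.20, adjusted p = 2.29e-07) against the knockout and 1.45 (SE 0.18, adjusted p = 3.84e-09) against wild type. Six2 had 2.16, 3.32 and 2.45 CPM in the double knockout, against 0.66, 0.722 and 0.667 CPM in wild type (1.92 (SE 0.27, adjusted p = 1.3e-07)). Tlx3 had 2.62, 2.96 and 2.78 CPM in the double knockout, against 1.26, 1.35 and 1.24 CPM in wild type (1.11 (SE 0.23, adjusted p = 7.43e-05)). Hmx1 had 4.05, 5.63 and 5.6 CPM in the double knockout, against 2.25, 2.39 and 1.86 CPM in wild type (1.24 (SE 0.19, adjusted p = 7.93e-07)). These groups were apart from wild type and from the BAP1 knockout. Nkx2-5 had 2.48, 1.66 and 2.12 CPM in the double knockout, against 0.81, 0.793 and 1.02 CPM in the BAP1 knockout and 1.48, 2.12 and 1.38 CPM in wild type. It was called against the knockout (1.21 (SE 0.31, adjusted p = 0.000859)) and not against wild type (0.33 (SE 0.25, adjusted p = 0.269)). Pax1 had 0.523, 1.01 and 1.55 CPM in the double knockout, against 0.72, 0.661 and 0.361 CPM in the BAP1 knockout and 0.66, 0.858 and 1.19 CPM in wild type. Its call against the knockout at 0.99 (SE 0.44, adjusted p = 0.0497) was lost with DESeq2 (adjusted p = 0.11), with no filter on low counts (adjusted p = 0.057), without BAP1 knockout library 2 (adjusted p = 0.0614), without BAP1 knockout library 3 (adjusted p = 0.297), without double knockout library 2 (adjusted p = 0.0643) and without double knockout library 3 (adjusted p = 0.459). Prrx1, a gene of limb and face mesenchyme, had 1.83, 0.939 and 1.8 CPM in the double knockout, against 0.90, 1.98 and 0.782 CPM in the BAP1 knockout and 1.43, 1.4 and 1.19 CPM in wild type, and was called in neither comparison.

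Members called lower in the BAP1 knockout had the following levels in the double knockout. Gsx1 had 2.35, 2.6 and 2.53 CPM in the double knockout, against 1.32, 1.26 and 1.52 CPM in wild type and the 2 counts of the BAP1 knockout. Its level lay above wild type in every library, at 0.86 (SE 0.25, adjusted p = 0.00324), and the ratio to the BAP1 knockout per library size was 44.1 (exact 95% interval 12 to 368). Nkx6-3 had 9.35, 10.2 and 11.4 CPM in the double knockout, against 14.2, 17.2 and 17.4 CPM in wild type. It was above the BAP1 knockout, at 2.87 (SE 0.20, adjusted p = 4.05e-16), and below wild type, at -0.65 (SE 0.12, adjusted p = 8.03e-06). The untreated knockout line was also below wild type in Nkx6-3, at -0.54 (SE 0.11, adjusted p = 0.000146). Meis1 had 9.61, 8.23 and 9.23 CPM in the double knockout, against 2.75, 3.75 and 3.62 CPM in wild type, above both (2.07 (SE 0.19, adjusted p = 2.94e-12) over the knockout and 1.41 (SE 0.16, adjusted p = 3.55e-10) over wild type). Lhx6 had 3.14, 1.59 and 3.06 CPM in the double knockout, against 1.32, 1.99 and 1.72 CPM in wild type, overlapping the wild type libraries. Lhx6 was called over the knockout (1.81 (SE 0.33, adjusted p = 9.12e-06)), at 2.45 without BAP1 knockout library 3, and its call against wild type at 0.65 (SE 0.25, adjusted p = 0.0259) was lost with DESeq2 (adjusted p = 0.0558), without wild type library 1 (adjusted p = 0.111), without wild type library 3 (adjusted p = 0.0504), without double knockout library 1 (adjusted p = 0.108) and without double knockout library 3 (adjusted p = 0.168). Barhl2 had 1.77, 1.73 and 1.27 CPM in the double knockout, against 0.44, 0.993 and 0.667 CPM in wild type. It was called over the knockout (2.16 (SE 0.48, adjusted p = 0.000142)), and its call against wild type at 1.12 (SE 0.36, adjusted p = 0.00801) was lost with counts thinned to the smallest library (adjusted p = 0.0959) and without wild type library 1 (adjusted p = 0.0538).

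Lhx9, Gsx2, Pax6 and Meis3 were among the 5 members called lower in the double knockout than in the BAP1 knockout. Lhx9 had 0.785, 1.23 and 0.899 CPM in the double knockout, against 1.54, 1.53 and 2.38 CPM in wild type. Its libraries were lower than those of every other group, at -4.15 (SE 0.19, adjusted p = 8.68e-22) against the knockout and -0.93 (SE 0.26, adjusted p = 0.0027) against wild type. Gsx2 had 1.63, 1.66 and 2.25 CPM in the double knockout, against 0.715, 0.677 and 0.762 CPM in wild type. It was far below the BAP1 knockout (-2.34 (SE 0.20, adjusted p = 1.02e-13)) and above wild type (1.40 (SE 0.28, adjusted p = 4.29e-05)). The untreated knockout line was also above wild type in Gsx2, at 1.63 (SE 0.26, adjusted p = 2.57e-06). Pax6 had 6.34, 6.57 and 6.17 CPM in the double knockout, against 2.91, 2.84 and 2.95 CPM in wild type, above wild type in every library (1.12 (SE 0.17, adjusted p = 2.58e-07)). In the untreated knockout line, too, Pax6 was called higher than in wild type, as given below. The smaller step of Pax6 in the double knockout below the BAP1 knockout (-0.47 (SE 0.15, adjusted p = 0.00673)) was lost with counts thinned to the smallest library (adjusted p = 0.115) and without BAP1 knockout library 3 (adjusted p = 0.201).

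Irx1, Irx2, Irx5 and Nkx6-1, raised in the BAP1 knockout, were called higher in the double knockout than in wild type but not called between the double knockout and the BAP1 knockout. Irx2 had 19.8, 17.3 and 20.7 CPM in the double knockout, against 6.76, 7.72 and 8.29 CPM in wild type. Irx1 had 3.33, 4.04 and 5.39 CPM in the double knockout, against 0.935, 0.993 and 0.572 CPM in wild type. Both were wholly above wild type, at 1.35 (SE 0.10, adjusted p = 6.96e-15) for Irx2 and 2.38 (SE 0.25, adjusted p = 1.39e-10) for Irx1, and neither was called against the knockout, at -0.17 (SE 0.10, adjusted p = 0.108) and 0.04 (SE 0.21, adjusted p = 0.876). Irx5 had 3.01, 2.82 and 3.23 CPM in the double knockout, against 0.88, 0.858 and 1.19 CPM in wild type (1.63 (SE 0.25, adjusted p = 6.26e-07)). Irx3 had 6.41, 5.78 and 5.92 CPM in the double knockout, against 2.75, 3.61 and 2.53 CPM in wild type (1.02 (SE 0.16, adjusted p = 6.36e-07)). Nkx6-1 had 1.05, 1.37 and 1.84 CPM in the double knockout, against 1.04, 0.451 and 0.286 CPM in wild type (1.34 (SE 0.37, adjusted p = 0.00202)), or 1.96 without wild type library 1. Irx5 and Nkx6-1 were not called against the knockout, and the call of Irx3 there at 0.37 (SE 0.16, adjusted p = 0.0473) was lost with DESeq2 (adjusted p = 0.0831), with counts thinned to the smallest library (adjusted p = 0.275), with no filter on low counts (adjusted p = 0.0888), without BAP1 knockout library 1 (adjusted p = 0.114), without BAP1 knockout library 2 (adjusted p = 0.061), without BAP1 knockout library 3 (adjusted p = 0.108), without double knockout library 1 (adjusted p = 0.115), without double knockout library 2 (adjusted p = 0.0555) and without double knockout library 3 (adjusted p = 0.0745). Lhx2 had 4.38, 5.49 and 4.58 CPM in the double knockout, against 1.76, 1.72 and 1.52 CPM in wild type, and rose over both (1.52 (SE 0.19, adjusted p = 1.03e-08) over wild type). Lmx1b had 7.19, 8.81 and 6.82 CPM in the double knockout, against 2.8, 3.39 and 3.76 CPM in wild type, and likewise rose over both (1.17 (SE 0.15, adjusted p = 2.01e-08) over wild type). Irx4 was an exception, with 0.654, 1.01 and 1.43 CPM in the double knockout, against 1.54, 3.02 and 1.67 CPM in wild type. It was lower than wild type (-0.95 (SE 0.29, adjusted p = 0.00478)), a call lost without wild type library 2 (adjusted p = 0.131), and its call over the knockout (1.44 (SE 0.46, adjusted p = 0.00615)) was lost with counts thinned to the smallest library (adjusted p = 0.0596) and without double knockout library 3 (adjusted p = 0.0918).

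The knockout effect and the double knockout against wild type share no library. Of the 27 members higher in the BAP1 knockout, 25 (92.6%) were higher in the double knockout than in wild type, Lhx9 was lower and 1 was not called. Over all tested genes 28.9% of those higher in the knockout were higher in the double knockout than in wild type, and 32.5% were lower. Some of the 25 members, among them Gsx2, Meis2, Nkx2-9 and Pax6, were already called higher than wild type in the untreated knockout line. What this line difference adds to the share was not tested. Of the 11 members lower in the knockout, 6 (among them Barhl2, Gsx1, Lhx6, Meis1 and Six4) were higher in the double knockout than in wild type, Nkx6-3 was lower, and 4 were not called. The 6 were 54.5% of the members lower in the knockout, against 25.4% over all genes. A further 13 members not called in the knockout were higher in the double knockout than in wild type, 54.2% of those not called, against 24.6% over all genes. As given above, for 13 tested members only the double knockout had all 3 libraries at the filter's level, so these shares describe the tested members. Those 13 include Alx4, Nkx2-1, Nkx2-3 and Pax3, which are also among the 25.

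Some members lie side by side on a chromosome. On chromosome 12, Nkx2-1, Nkx2-9 and Pax9 lie within gaps of 74.5 and 78.1 kb (GRCm38 coordinates from GENCODE M21). All 3 were called higher in the BAP1 knockout, and in the double knockout against wild type. Nkx2-1, a thyroid and lung regulator, rested on few counts, with 49 in all in the double knockout, against 2 in wild type. Six4, on the same chromosome, was lower in the BAP1 knockout and in the C91A mutant and higher in the double knockout than in wild type. Six4 had 56.2, 53.7 and 56.4 CPM in the double knockout, against 44.7, 44.6 and 47.4 CPM in wild type, a log2 change of 0.28 (SE 0.06, adjusted p = 0.000114). On chromosome 17, Six2 and Six3 lie 36.5 kb apart, and both were higher in the double knockout than in wild type. Dlx3 and Dlx4, 15.2 kb apart on chromosome 11, gave the knockout effects 0.04 (SE 0.16, adjusted p = 0.859) and -1.86 (SE 0.51, adjusted p = 0.00157). Exons of 25 members overlapped those of another gene, by at most 16.6% of the exonic bases with any 1 partner, and the library kit does not mark strand.

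The untreated lines already differed from wild type. In the untreated knockout line 18 members were called against wild type, 8 higher and 10 lower (29% of members against 39.3% of all genes), and in the untreated C91A line 17, 8 higher and 9 lower (27.4% against 27.6%). Among them Nkx6-3 was lower in both untreated lines, at -0.54 (SE 0.11, adjusted p = 0.000146) in the knockout line and -1.38 (SE 0.12, adjusted p = 1.35e-11) in the C91A line. Prrx1 was much lower in the untreated C91A line, with 0.0678, 0.17 and 0.195 CPM, against 1.43, 1.4 and 1.19 CPM in wild type (-3.11 (SE 0.49, adjusted p = 3.59e-06)). In the untreated knockout line Prrx1 was called at -0.96 (SE 0.34, adjusted p = 0.023), and this was lost with DESeq2 (adjusted p = 0.0526), with counts thinned to the smallest library (adjusted p = 0.169), without wild type library 1 (adjusted p = 0.0622), without wild type library 2 (adjusted p = 0.059) and without untreated knockout line library 1 (adjusted p = 0.186). Irx4 differed in opposite directions, at -1.72 (SE 0.31, adjusted p = 1.51e-05) in the knockout line and 0.77 (SE 0.23, adjusted p = 0.0103) in the C91A line, the second call being lost with counts thinned to the smallest library (adjusted p = 0.121), without wild type library 1 (adjusted p = 0.0761) and without wild type library 3 (adjusted p = 0.0703). Gsx2 was higher in the untreated knockout line (1.63 (SE 0.26, adjusted p = 2.57e-06)), as were Pax6 (1.06 (SE 0.16, adjusted p = 1.06e-06)), Meis2 (1.46 (SE 0.34, adjusted p = 0.000642)) and Nkx2-9 (0.90 (SE 0.22, adjusted p = 0.001)). Hmx2 was higher there too (2.47 (SE 0.67, adjusted p = 0.00293)), a call lost without untreated knockout line library 2 (adjusted p = 0.0565). The comparisons of the 2 lines share the wild type libraries.

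Partners of the members were counted from lists chosen with earlier results known. The genes named from each list, here and in the next paragraph, were picked for the size of their changes. The knockout effect and the double knockout against the BAP1 knockout share the BAP1 knockout libraries. Opposite signs of a gene in those comparisons are therefore not independent results. Among all genes tested, 31.3% rose and 30.3% fell in the BAP1 knockout. Against the BAP1 knockout, 32.6% were higher and 30.6% lower in the double knockout. All 6 EYA and DACH genes, whose products bind PAX proteins and those of the sine oculis family, were tested. Of these, 3 rose and none fell in the BAP1 knockout, with Dach1 at 3.16 (SE 0.30, adjusted p = 6.26e-12) and Eya4 at 3.05 (SE 0.31, adjusted p = 2.55e-11). Set against the BAP1 knockout, 1 was higher and 4 were lower in the double knockout, with Dach1 at -2.08 and Eya4 at -1.52 on the log2 scale. Of 8 tested cofactors of LIM-homeodomain proteins, 5 rose and 1 fell in the BAP1 knockout, and 1 was higher and 5 lower in the double knockout than in the knockout. Ssbp2, a binding partner of the LDB1 adaptor, changed by 1.19 and -1.0 in that order, and Lmo4, a LIM-only protein, by 0.90 and -0.84. Of 6 tested Groucho (TLE) corepressors, which many homeodomain proteins recruit, 2 rose and 4 fell in the BAP1 knockout, with Tle2 at -2.61 (SE 0.37, adjusted p = 6.18e-08) and Tle6 at -2.32 (SE 0.19, adjusted p = 5.44e-14). The double knockout had 4 of them higher and 2 lower than the knockout, with Tle2 at 2.14 and Tle6 at 1.96.

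Among 41 other homeobox genes tested, 12 rose and 10 fell in the BAP1 knockout, and 25 were higher and 9 lower in the double knockout than in wild type. For this list and those below, the shares over all genes tested were 31.3% higher and 30.3% lower in the BAP1 knockout. They were 26.2% higher and 27.1% lower in the double knockout against wild type. Hopx, which encodes a small homeodomain protein without DNA binding, changed by -4.11 (SE 0.32, adjusted p = 1.63e-14) in the BAP1 knockout and by 4.08 (SE 0.33, adjusted p = 2.96e-14) in the double knockout against it. Gbx2, a midbrain-hindbrain gene that embryonic stem cells also express, changed by -2.59 and 2.60 in the same order. Vax2, an eye gene, was 4.79 and Prox1, a lymphatic regulator, 2.29, the first in the double knockout against wild type and the second in the knockout against its line. Of 41 developmental regulators without a homeobox, 26 were higher and 6 lower in the BAP1 knockout, and 32 were higher and 2 lower in the double knockout than in wild type. In the knockout Foxa2, an endoderm regulator, rose by 2.60 and Snai2, a neural crest gene, by 2.46, whereas Foxd3 fell, at -3.61. Of 18 signals that pattern homeobox genes, 6 rose and 7 fell in the BAP1 knockout, with the growth factor gene Bmp4 at -1.96 (SE 0.14, adjusted p = 1.69e-15) and its antagonist Nog at 1.77 (SE 0.38, adjusted p = 0.000112).

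Markers of other cells moved in the same comparisons. The summed level of 16 fibroblast markers, listed for feeder cells, was 3048 to 3248 CPM in the BAP1 knockout, against 1844 to 1979 CPM in its untreated line. It was 2141 to 2187 CPM in the C91A mutant, against 1610 to 1732 CPM in its untreated line, and 1964 to 2142 CPM in the double knockout, against 1555 to 1637 CPM in wild type. Most of that sum was Fn1, which stem cells also express. Without Fn1 the other 15 summed to 133 ± 4.67 CPM in the BAP1 knockout, against 86.5 ± 1.29 CPM in its untreated line, to 202 ± 6.37 CPM in the C91A mutant, against 87.7 ± 1.49 CPM in its untreated line, and to 213 ± 2.14 CPM in the double knockout, against 137 ± 5.73 CPM in wild type (SD, n = 3 each). Over all genes tested, 31.3% rose and 30.3% fell in the BAP1 knockout, and 28.6% rose and 26.4% fell in the C91A mutant. In the double knockout 26.2% were higher and 27.1% lower than in wild type, and 32.6% higher and 30.6% lower than in the BAP1 knockout. Against wild type, 18.5% were higher and 20.8% lower in the untreated knockout line, and 13.4% and 14.2% in the untreated C91A line. Of 15 tested fibroblast markers 6 rose and 1 fell in the BAP1 knockout, 10 rose and 1 fell in the C91A mutant, and 11 were higher and 1 lower in the double knockout than in wild type. Of 11 pluripotency markers 2 rose and 9 fell in the BAP1 knockout, none rose and 10 fell in the C91A mutant, and 7 were higher and 2 lower in the double knockout than in wild type. Of 8 tested neural progenitor markers, which include the member Pax6, 4 rose and 2 fell in the BAP1 knockout, of 6 tested mesoderm markers 2 rose and 2 fell, and of 11 primitive endoderm markers 7 rose and none fell. Of the same 11 primitive endoderm markers 4 rose and 2 fell in the C91A mutant, 9 were higher and none lower in the double knockout than in the BAP1 knockout, and 3 were higher and 2 lower in the double knockout than in wild type. Set against wild type, all 11 were lower in the untreated knockout line and 10 were lower and none higher in the untreated C91A line. Of the mesoderm markers 3 were higher and 1 lower in the double knockout than in the BAP1 knockout, and 4 were lower and none higher in the untreated knockout line than in wild type. Their part in the homeobox results was not tested, and in these bulk samples more cells of a type and more RNA per cell cannot be told apart.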

How the data were processed

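Polyadenylated RNA of 18 mouse embryonic stem cell libraries was sequenced with TruSeq version 2 reagents as single reads of 50 bases, per the labels' protocols, and aligned with GSNAP to GRCm38, per the submitters' processing notes. The deposited files gave the authors' count of reads per gene, by Entrez identifier, and the authors' size-factor-adjusted RPKM per gene, which served here only to compare levels between genes. Library totals ran from 8.11 to 23 megacounts, and a group near 0 counts limits a ratio to the intervals given, which cover counting error only. Counts were filtered with filterByExpr on the groups, with a minimum count of 10, scaled by TMM and fitted with edgeR 4.0.16, which rests on limma 3.58.1, in R 4.3.3, with a mean for each group over all 18 libraries, and calls were made at an adjusted p of 0.05. A gene with 1 to 3 counts in a group is given as a ratio with an exact 95% interval. The fit was tested on simulated data. Alternatives were DESeq2 1.42.0, other size factors, other filters, thinning to 8.11 megacounts, fitting only the groups compared, and leaving out each library. Replicates are numbered in the order of submission. The member families and gene lists were chosen with earlier results of these data known, although the rule within a family goes by gene symbol alone. Values by library are given for members with a group mean of at least 1 CPM that were called with a log2 fold change of at least 1 in size in any of 7 comparisons, and from each list up to 4 called genes with the largest changes. Results of some members are not reported here. The other members named were chosen after their values were seen.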

Additional observations from a re-analysis of the deposited data

Results flagged for a closer look

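For 13 members the difference between the knockout effect and the C91A effect passed the test of the difference itself (edgeR's quasi-likelihood test, adjusted p under 0.05). The 2 effects share no library. Values are log2 differences, knockout effect minus C91A effect. The effect was higher in the knockout for Gsx2 (1.34), Irx5 (1.39), Lhx9 (0.65), Irx2 (0.50) and Nkx2-3 (4.16). The Nkx2-3 value rests on 11 counts in the BAP1 knockout and 2 in its untreated line, and on 3 in the C91A mutant and 8 in its untreated line, so its size depends on the fit. The effect was lower in the knockout for 8 members, among them Nkx6-3 (-1.37), Tlx3 (-1.20), Meis1 (-0.94), Barx1 (-0.83), Dlx3 (-0.58), Dlx4 (-2.0) and Six4 (-0.26). Of these 13 calls, 5 held whichever single library was left out. The Nkx2-3 difference was lost without untreated C91A line library 2 (adjusted p = 0.112), without C91A mutant library 3 (adjusted p = 0.0638), without untreated knockout line library 1 (adjusted p = 0.0614), without untreated knockout line library 2 (adjusted p = 0.0592) and without BAP1 knockout library 3 (adjusted p = 0.0641). The Dlx3 difference was lost with DESeq2 (adjusted p = 0.0503), with counts thinned to the smallest library (adjusted p = 0.404), without untreated C91A line library 1 (adjusted p = 0.0558), without untreated C91A line library 3 (adjusted p = 0.0802), without C91A mutant library 2 (adjusted p = 0.116), without C91A mutant library 3 (adjusted p = 0.0971), without untreated knockout line library 3 (adjusted p = 0.126), without BAP1 knockout library 2 (adjusted p = 0.0542) and without BAP1 knockout library 3 (adjusted p = 0.103). The Dlx4 difference was lost without untreated C91A line library 2 (adjusted p = 0.0525), without untreated C91A line library 3 (adjusted p = 0.06), without C91A mutant library 2 (adjusted p = 0.0746), without BAP1 knockout library 2 (adjusted p = 0.0542) and without BAP1 knockout library 3 (adjusted p = 0.106). The Six4 difference was lost without untreated C91A line library 1 (adjusted p = 0.0891), without C91A mutant library 1 (adjusted p = 0.0881), without untreated knockout line library 2 (adjusted p = 0.0543), without untreated knockout line library 3 (adjusted p = 0.0568), without BAP1 knockout library 1 (adjusted p = 0.0807) and without BAP1 knockout library 3 (adjusted p = 0.0601).

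Dlx4 had 0.45, 0.132 and 0.181 CPM in the BAP1 knockout, against 1.01, 0.98 and 0.844 CPM in its untreated line, and 0.497, 0.955 and 0.712 CPM in the C91A mutant, against 1.15, 0.553 and 0.326 CPM in that untreated line. Dlx3 had 6.3, 5.81 and 5.6 CPM in the BAP1 knockout, against 5.14, 5.41 and 6.75 CPM in its untreated line, and 6.88, 10.2 and 9.48 CPM in the C91A mutant, against 5.7, 6.29 and 5.34 CPM in that untreated line. In Dlx4 the knockout libraries were all below those of their untreated line, while the C91A libraries overlapped theirs. In Dlx3 the C91A mutant libraries were the high ones of all 4 groups.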

How the results depend on the processing

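No reported direction reversed under the alternatives run. With other size factors, other filters, DESeq2 or only the compared groups in the fit, the counts of called members stayed within 1.5 times of those reported in all 7 comparisons. With counts thinned to the smallest library they fell to 5 for the difference of the allele effects (1 higher, 4 lower) and to 9 for the untreated C91A line against wild type (4 higher, 5 lower), and the other 5 comparisons stayed within 1.5 times. Leaving out 1 library gave 32 to 37 calls for the BAP1 knockout, 26 to 32 for the C91A mutant, 8 to 13 for their difference, 35 to 44 for the double knockout against the BAP1 knockout, 48 to 50 against wild type, 16 to 18 for the untreated knockout line and 12 to 14 for the untreated C91A line. The 8 came without BAP1 knockout library 3, and the cause was not tested. Calls that held without any 1 library were 26 of 38, 24 of 32, 5 of 13, 32 of 43, 45 of 50, 12 of 18 and 8 of 17 in the same order. No paired analysis was possible because the labels carry no replicate numbers. Depth limits members under about 1 CPM, where a group can hold 3 counts or fewer. The median change of all genes moved by at most 0.0149 on the log2 scale under any scaling tried.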
